A study of Mus musculus with 6 samples.

Results

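The nuclear genes for the proteins of the mitochondrial ribosome were compared between pituitaries of Jmjd2a-null mice (KO) and of wild-type littermates (WT). Members were taken by name, as every array probe whose RefSeq accession belongs to a mouse gene with a symbol starting with Mrpl or Mrps and a number. The rule found 78 genes with 100 probes, of 20972 named genes and 55681 probes on the array. The arrays carried RNA from 3 KO animals (Jmjd2a-/-) and 3 WT animals (Jmjd2a+/+), 1 array for each animal. All were virgin C57BL6 females aged 8 weeks whose oestrus cycle had been started by soiled bedding of a stud male, and the whole gland was taken 24 h later. The labels call the allele null and do not say which exons it lacks. Jmjd2a, now named Kdm4a, encodes a demethylase of lysines in histone H3.

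The mitochondrial ribosome makes the few proteins that mitochondrial DNA encodes, all of them subunits of the respiratory chain and ATP synthase. Its RNAs come from mitochondrial DNA, whereas all its proteins are encoded in the nucleus, made in the cytosol and imported. Many have counterparts in bacterial ribosomes and are called bacterial-type here, and the others are found in mitochondria and not in bacteria. The names follow the small (Mrps) and the large (Mrpl) subunit with a few exceptions, since Mrps18a and Mrps30 sit in the large subunit. Mrps36, now named Kgd4, belongs to the 2-oxoglutarate dehydrogenase complex and is no ribosomal protein, but it fits the naming rule and was kept. The 78 genes were thus 51 of the large subunit (30 bacterial-type and 21 mitochondria-specific), 26 of the small subunit (16 and 10) and Mrps36. Genes of the mitochondrial DNA itself were not analysed here.

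Values are log2 processed signals minus each array's 75th percentile, and probes were used if well above background on at least 3 of the 6 arrays. Between 34634 and 40567 probes passed that mark on an array, and the number of arrays limits the precision of each value. The better Kdm4a probe was well above background on all 6 arrays. It read 1.45, 1.20 and 1.36 on the KO arrays, against 2.14, 1.90 and 1.85 on the WT arrays, with no overlap. That is 64.9% of the WT level, at p = 0.1 in a two-sided exact permutation test, the smallest p that 3 against 3 arrays can give. The limma adjusted p was 0.237. The position of this probe relative to the deleted part is not known, so its remaining signal does not check the labels. The other Kdm4a probe was well above background on 2 arrays and had a log2 fold change of 0.10 (exact permutation p = 0.9). Probes of the pituitary hormones Prl, Gh, Pomc, Lhb and Tshb were well above background on all 6 arrays. Markers of neutrophils, Schwann cells and dividing cells were highest on WT replicate 3. Its median deviation from the mean of all arrays was 2.20 over 8 neutrophil genes, 0.94 over 7 Schwann cell genes and 2.02 over 8 cell division genes. On the other 5 arrays the values ran from -0.58 to -0.14 for the neutrophil genes and from -0.35 to -0.00 for the Schwann cell genes. The cell division list also differed between the groups, with -0.63, -1.19 and -0.69 on the KO arrays and 0.11, 0.51 and 2.02 on the WT arrays. Its median log2 fold change was -1.62, and 6 of its 8 genes had an unadjusted p under 0.05. All but 3 of the neutrophil, Schwann cell and cell division genes (Ltf, Ngp and Top2a) were well above background on all 6 arrays. Lists of fibroblast and of stem cell genes were also highest on WT replicate 3, but other lists were not. Endothelial (-0.15) and macrophage genes (-0.16) were lowest on that array. Erythroid genes were highest on KO replicate 1 (0.80) and posterior lobe genes on WT replicate 1 (0.12). In whole glands, fewer cells of a type and less RNA per cell cannot be told apart.

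No mitochondrial ribosomal protein gene differed between KO and WT pituitaries at an adjusted p under 0.05 (limma), and neither did any other of the 26887 genes and features tested (percent called 0, with 3445 at an unadjusted p under 0.05). Of the 78 genes, 77 were tested, each well above background on all 6 arrays, and their lowest adjusted p was 0.349. At an adjusted p under 0.1 there were 0 members, beside 15 features in all (0.0558%). At an unadjusted p under 0.05 there were 4 of 77 genes (5.19%), against 12.8% of everything tested. All 4 were lower in KO: Mrpl32, Mrps16, Mrpl33 and Mrpl58. Over all features 8.92% were lower and 3.89% higher at this mark. The splits of these calls changed with the scaling: median centring gave 0 members lower and 1 higher, the authors' value table gave 6 members lower and 3 higher, and quantile normalization 5 lower and 1 higher.

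The members' changes were small. Log2 fold changes, KO over WT, ran from -0.41 (75.5% of the WT level) for Mrps16 to 0.28 (121%) for Mrpl43, with standard errors of 0.11 to 0.20. The median was -0.11, beside -0.08 over everything tested. Of the 77 genes, 58 (75.3%) were below 0, beside 61% of all features, and 43 were below the median of all features. That last count was 31 of 77 with normexp background correction, 29 of 78 with no filter and 52 of 77 with quantile normalization. With each array centred on its median in place of the 75th percentile, the median of all features became 0.10 and that of the members 0.07, so their common sign followed the scaling. Such centring shifts every gene alike. The members' median minus that of all features was -0.03 as reported, 0.04 with normexp background correction, 0.05 with no filter on dim probes and -0.08 with quantile normalization, so its sign depended on the processing. The 95% intervals of all 77 lay within a 2-fold change either way, and those of 60 within a 1.5-fold change. The intervals reached 0.33 to either side at the median.

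The KO and WT arrays did not overlap for 17 members (22.1%), beside 20.6% of all features. In 15 of them KO was lower (13.5% of all features) and in 2, Mrpl43 and Mrpl49, KO was higher (7.14% of all features). The replicates of both groups were close. The median standard deviation of a member was 0.11 among KO arrays and 0.15 among WT arrays (n = 3 each), beside 0.15 and 0.23 over everything tested. It was smaller in KO for 50 of 77 genes.

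Mrpl32 encodes a bacterial-type large subunit protein that a protease of the inner membrane cuts to its mature form. It read 1.68, 1.80 and 1.84 on the KO arrays and 2.12, 2.06 and 2.11 on the WT arrays. All 3 KO values were below all WT values, and the WT values lay close together. The log2 fold change was -0.32 ± 0.11 (SE), or 80.0% of WT, with a limma adjusted p of 0.349.

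Mrps16, a bacterial-type small subunit protein whose mutation in people impairs mitochondrial translation, had the largest fitted decrease. Its values were 4.01, 4.37 and 4.18 in KO and 4.55, 4.45 and 4.78 in WT. The groups came closest at KO replicate 2 and WT replicate 2, without overlap. The log2 fold change was -0.41 ± 0.15, with a limma adjusted p of 0.361.

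Mrpl33, a small bacterial-type protein of the large subunit, read 4.79, 5.08 and 5.0 in KO and 5.17, 5.30 and 5.45 in WT. Mrpl58 (also Ict1) encodes a peptidyl-tRNA hydrolase that frees stalled mitochondrial ribosomes and is itself a part of the large subunit. It read 3.82, 4.14 and 3.98 in KO and 4.31, 4.21 and 4.45 in WT. For both genes KO replicate 1 was the lowest array and WT replicate 3 the highest. Their log2 fold changes were -0.35 ± 0.14 each, with a limma adjusted p of 0.376 each.

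The next members by p did not reach the unadjusted threshold, though their arrays did not overlap. Mrpl53, of the mitochondria-specific part of the large subunit, read 3.32, 3.56 and 3.42 in KO and 3.64, 3.74 and 3.81 in WT (-0.30 ± 0.13). Mrps24, the counterpart of a bacterial protein near the messenger RNA entry, read 1.91, 1.96 and 2.11 in KO and 2.31, 2.15 and 2.58 in WT (-0.35 ± 0.15). Mrpl14, at the face between the subunits, read 4.62, 4.77 and 4.77 in KO and 5.01, 4.93 and 5.02 in WT (-0.27 ± 0.12). KO was below WT on every array for these 3 genes, with the widest spread in the WT values of Mrps24. Mrpl23, which lines the end of the tunnel where the new chain leaves the ribosome, read 4.33, 4.46 and 4.37 in KO and 4.76, 4.49 and 5.10 in WT (-0.40 ± 0.17). Its KO values lay within a narrow band and its WT values were spread, WT replicate 2 being next to the KO arrays.

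Mrps28, the mitochondrial counterpart of bacterial protein S1, read 3.50, 3.71 and 3.44 in KO and 3.86, 3.71 and 4.13 in WT (-0.35 ± 0.15). Its KO replicate 2 and WT replicate 2 nearly touched. The other 6 genes with KO lower on every array were Mrpl2, Mrpl57, Mrpl55, Mrpl10, Mrpl4 and Mrpl18, with log2 fold changes of -0.33 to -0.15. Mrpl54 had a lower log2 fold change than these 6 genes, -0.37, but the largest standard error of any member (0.20). It read 2.95, 3.36 and 3.12 in KO and 3.35, 3.28 and 3.90 in WT, so the groups overlapped.

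Among the members that read higher in KO, Mrpl43 had the smallest p. This mitochondria-specific large subunit gene read 4.35, 4.45 and 4.39 in KO and 4.03, 4.21 and 4.13 in WT. All KO values were above all WT values. The log2 fold change was 0.28 ± 0.12, with a limma adjusted p of 0.388, and the other probe of the gene gave 0.19.

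Mrpl49, also specific to the mitochondrial large subunit, read 2.24, 2.37 and 2.41 in KO and 2.21, 2.15 and 2.08 in WT (0.20 ± 0.12). The arrays did not overlap, but they nearly touched, and the gene's other probe went the opposite way (-0.18 ± 0.14). For Mrpl19, a bacterial-type large subunit gene, the values were 0.12, 0.24 and 0.39 in KO and -0.15, 0.22 and 0.01 in WT (0.22 ± 0.15). For Mrps26, a mitochondria-specific small subunit gene, they were 4.60, 4.86 and 4.94 in KO and 4.39, 4.79 and 4.61 in WT (0.20 ± 0.16). The groups overlapped for both.

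**Figure D1:**
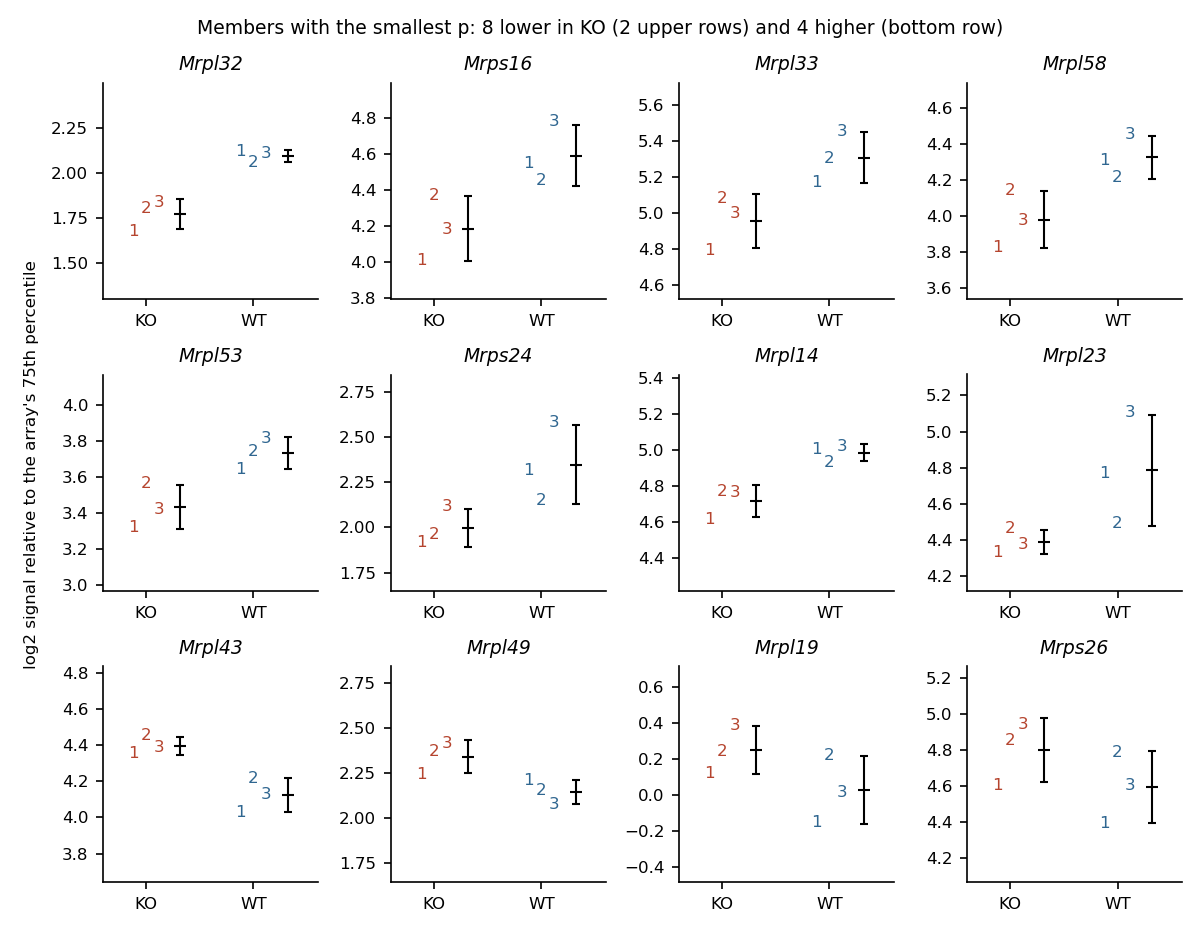
Values of the 8 members with the smallest p among those lower in KO (upper rows) and the 4 among those higher in KO (bottom row). The vertical axes give log2 signal minus the 75th percentile of each array, the numbers mark the replicates of KO (left, red) and WT (right, blue), and the bars show mean and SD (n = 3 each). Mrpl32 shows the widest separation for its spread, and Mrpl19 and Mrps26 overlap.

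The promoters of the 4 genes with an unadjusted p under 0.05 and of Mrpl43 are shown because nuclear genes of the mitochondrial ribosome are known to carry sites for the factors NRF1, GABP (an ETS factor) and YY1. Each runs from 250 bases before to 10 bases after the annotated start on the gene's own strand, from RefSeq's GRCm38.p6 annotation. Capitals mark matches on either strand to the NRF1 motif (GCGC and TGCGC with 1 base of any kind between them) and to CCGGAAG (ETS). No ANATGGCGG (YY1) is in them. The windows lie at chr13:14613028-14613287 (minus strand), chr14:20393481-20393740 (minus strand, 1 of 2 windows listed), chr5:31613701-31613960 (plus strand), chr11:115403502-115403761 (plus strand) and chr19:45006433-45006692 (minus strand). Mrpl32 holds the NRF1 motif and the other 4 the ETS motif, Mrpl58 and Mrpl43 each at 2 places. Of the 2 windows listed for Mrps16, the one shown was picked by its number of motif matches, so the choice favoured a match.
Mrpl32: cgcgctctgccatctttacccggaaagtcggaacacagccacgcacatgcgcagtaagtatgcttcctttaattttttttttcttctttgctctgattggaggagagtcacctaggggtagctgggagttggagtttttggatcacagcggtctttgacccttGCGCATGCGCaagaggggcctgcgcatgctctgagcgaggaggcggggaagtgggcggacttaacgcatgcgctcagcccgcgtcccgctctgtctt
Mrps16: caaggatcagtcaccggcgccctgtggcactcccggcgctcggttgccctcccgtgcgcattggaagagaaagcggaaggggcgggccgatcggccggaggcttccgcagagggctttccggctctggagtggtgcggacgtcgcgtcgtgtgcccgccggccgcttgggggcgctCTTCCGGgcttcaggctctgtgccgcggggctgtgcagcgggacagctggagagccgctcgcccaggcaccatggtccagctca
Mrpl33: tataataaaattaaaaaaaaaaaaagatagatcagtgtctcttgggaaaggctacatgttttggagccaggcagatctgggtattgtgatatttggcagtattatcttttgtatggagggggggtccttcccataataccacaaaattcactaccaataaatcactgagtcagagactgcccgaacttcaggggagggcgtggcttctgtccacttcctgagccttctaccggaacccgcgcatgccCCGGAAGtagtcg
Mrpl58: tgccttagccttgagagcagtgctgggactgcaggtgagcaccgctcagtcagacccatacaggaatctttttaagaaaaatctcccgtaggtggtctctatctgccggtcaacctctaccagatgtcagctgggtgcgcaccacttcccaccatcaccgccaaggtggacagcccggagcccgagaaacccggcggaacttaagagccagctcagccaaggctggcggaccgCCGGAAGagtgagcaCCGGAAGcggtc
Mrpl43: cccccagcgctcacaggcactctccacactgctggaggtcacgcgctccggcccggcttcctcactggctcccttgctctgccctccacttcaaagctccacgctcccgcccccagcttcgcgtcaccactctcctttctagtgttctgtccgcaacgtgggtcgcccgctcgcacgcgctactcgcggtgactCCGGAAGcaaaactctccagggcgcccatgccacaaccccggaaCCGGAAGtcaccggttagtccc

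These motifs were frequent among the members as a whole. Of the 69 members with a promoter window (250 bases before to 50 after the start), 13 (18.8%) held the NRF1 motif, beside 5.19% of 27025 genes. The ETS motif was in 26 (37.7%), beside 9.93% of all genes, and the YY1 motif in 7 (10.1%), beside 2.19%. At least 1 of the 3 was in 39 members (56.5%), beside 15.5% of all genes. The medians of members with and without a motif lay close together. The median log2 fold change was -0.05 with the NRF1 motif and -0.12 without it, and -0.14 with the ETS motif and -0.09 without it. With the YY1 motif it was -0.10, and without it -0.11. A match is a run of letters and not evidence of binding.

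The transcripts of the factors themselves gave values near those of all genes. Nrf1 had a log2 fold change of -0.06 ± 0.13, Gabpa, the DNA-binding part of GABP, of -0.14 ± 0.11, and Yy1 of 0.16 ± 0.12. Gabpb1, the partner of Gabpa, had -0.23 ± 0.14, the smallest p of this list. Of the 10 regulators of this kind that were tested, 0 had an unadjusted p under 0.05.

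Split by subunit, the 50 large subunit genes had a median log2 fold change of -0.08 and the 26 small subunit genes one of -0.13. At an unadjusted p under 0.05 these held 3 (6%) and 1 genes (3.85%), beside 12.8% of all features. The arrays did not overlap for 14 (28%) and 3 genes (11.5%), beside 20.6% of all features. Split by origin, the median was -0.15 over 45 bacterial-type genes and -0.05 over 31 mitochondria-specific genes. Below the median of all features, a count that a shift of the scale does not move, lay 33 of 45 bacterial-type genes and 9 of 31 mitochondria-specific genes. The lower median of the bacterial-type genes was seen in both subunits (-0.15 and -0.05 in the large, -0.16 and -0.01 in the small). It remained below that of the specific genes under every scaling tried, although with median centring both medians were above 0 (0.03 and 0.13). The difference between these classes was not tested.

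**Figure D2:**
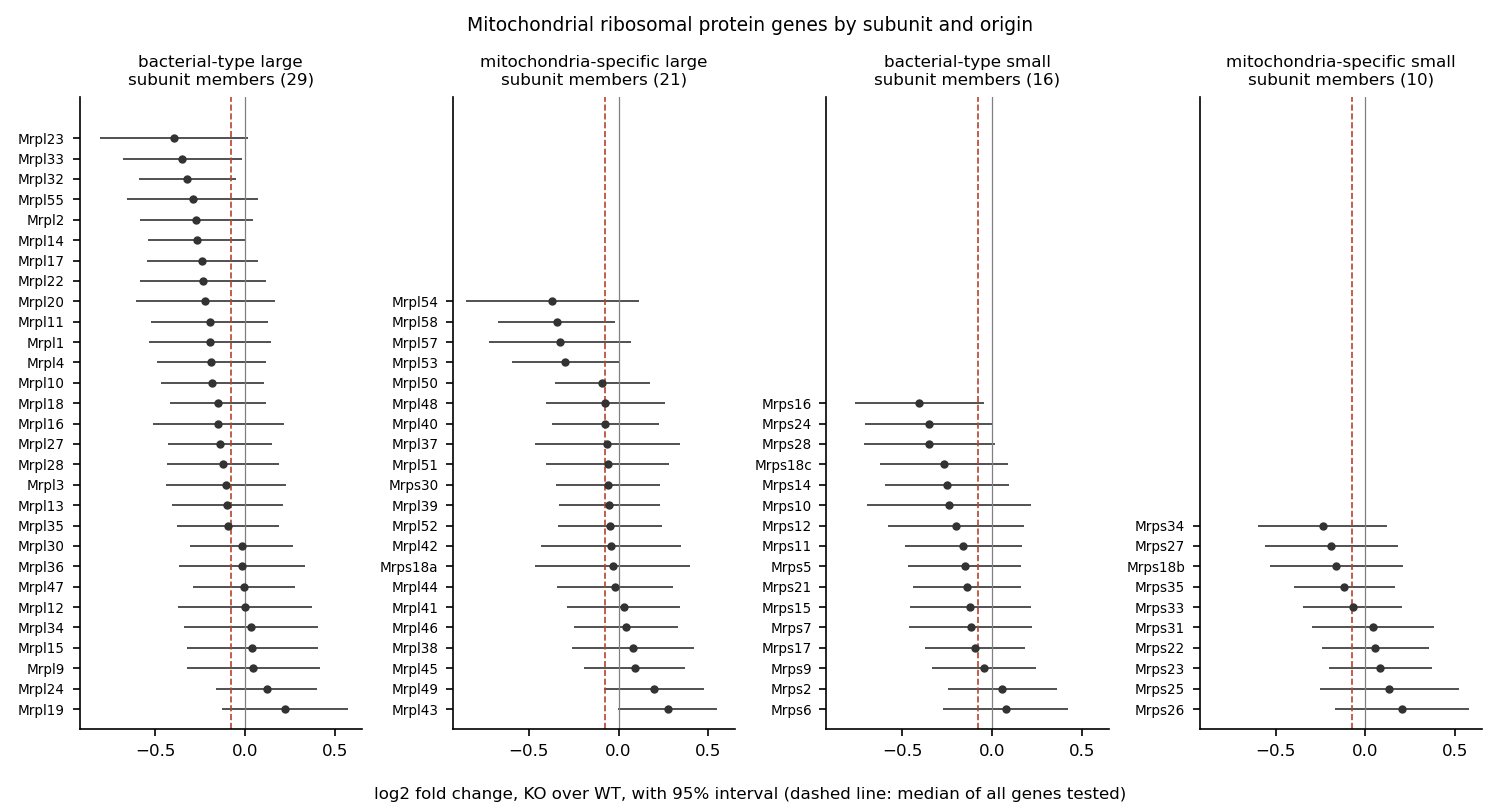
Log2 fold change, KO over WT, of 76 tested members in 4 classes (Mrps36 is left out), ordered within each panel. Points are limma estimates, lines are 95% intervals, the solid vertical line is 0 and the dashed line the median of all features tested (-0.08). In the bacterial-type classes most points lie left of the dashed line, and in the mitochondria-specific classes most lie right of it; with median centring every point and the dashed line move to the right together.

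Within the large subunit, the stalk that recruits translation factors is built from Mrpl10, Mrpl11 and Mrpl12. Mrpl10 read 1.58, 1.79 and 1.77 in KO and 1.88, 1.85 and 1.96 in WT (-0.18 ± 0.12), without overlap. Mrpl11 read 3.89, 4.09 and 4.10 in KO and 4.23, 4.06 and 4.38 in WT (-0.20 ± 0.14), with overlap. Mrpl12, which also binds the mitochondrial RNA polymerase, had 0.00 ± 0.16 and read 2.96, 3.35 and 3.23 in KO and 3.03, 3.12 and 3.38 in WT. The 7 genes at the exit tunnel or facing the membrane had a median of -0.02. Mrpl23 was given above with -0.40. Mrpl22 read 3.08, 3.21 and 3.08 in KO and 3.35, 3.13 and 3.58 in WT (-0.23 ± 0.15). Mrpl24 read 4.06, 4.22 and 4.24 in KO and 4.12, 3.98 and 4.06 in WT (0.12 ± 0.12). Both genes belong to the rim of the tunnel, and their groups overlapped. Mrpl45, which holds the ribosome at the inner membrane, read 2.01, 2.04 and 1.97 in KO and 2.04, 1.87 and 1.84 in WT (0.09 ± 0.12). Mrpl44, with a fold like that of RNase III, read 2.01, 1.99 and 1.94 in KO and 2.20, 1.81 and 1.99 in WT (-0.02 ± 0.14). Mrpl39 and Mrpl47, given with their probes, had -0.05 and -0.00. The groups overlapped for these 4 genes as well.

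In the small subunit, Mrps12, of the decoding centre, had -0.20 ± 0.16, with 4.40, 4.55 and 4.61 in KO and 4.50, 4.68 and 4.99 in WT. The KO and WT arrays overlapped. Mitoribosomal proteins that do not carry an Mrp name were also below 0, as were 61% of all features. Dap3, the GTP-binding protein of the small subunit, had -0.20 ± 0.15, Chchd1 -0.35 ± 0.15, Aurkaip1 -0.26 ± 0.13, Gadd45gip1 -0.15 ± 0.13 and Ptcd3 -0.08 ± 0.12. Of these 5 genes 0 had an unadjusted p under 0.05, beside 12.8% of all features. The arrays of Chchd1 and Aurkaip1 did not overlap (40% of the 5 genes, beside 20.6% of all features). Mrps36, the dehydrogenase subunit, had -0.16 ± 0.13.

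Mrpl21 was the member left out by the filter on dim probes, and without that filter its limma adjusted p was 0.546. Its 1 probe was well above background on 2 KO arrays and on 0 WT arrays. It read -4.21, -5.01 and -5.07 in KO and -5.09, -4.69 and -6.58 in WT. The KO mean was below the lowest signals counted as well above background on the WT arrays, so no fold is given.

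The members deviated together on 1 array of each group. Relative to each gene's mean over the 6 arrays, the members' median deviation was -0.15, 0.01 and -0.01 on KO replicates 1, 2 and 3 and 0.02, 0.00 and 0.17 on WT replicates 1, 2 and 3. KO replicate 1 was the lowest of the 6 arrays for 47 of 77 members, and WT replicate 3 was the highest for 46. The other 4 arrays were within 0.02 of the mean. Over everything tested the medians were -0.02, -0.02 and -0.05 in KO and 0.05, 0.03 and 0.01 in WT, so KO replicate 1 and WT replicate 3 did not stand apart there.

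Without KO replicate 1 the members' median was -0.05 (all features -0.09), and without WT replicate 3 it was -0.06 (all features -0.08). In either case 0 of 77 members had an unadjusted p under 0.05, and the members' median was above that of all features. Leaving out another array gave 2 members at this mark without KO replicate 2, 1 without KO replicate 3, 2 without WT replicate 1 and 10 without WT replicate 2. WT replicate 3 is the array with the highest neutrophil, Schwann cell and cell division markers, and cell division genes were lower on all KO arrays than on all WT arrays at the list median. Their part in the result was not tested. Slide rows were read from a number in the names of the deposited raw data, and the labels do not state them. By these, KO replicate 1 and WT replicate 3 lay in slide row 1, which held 2 arrays of each group. Within that row the members' median was -0.14 (all features -0.07), and in row 2, with 1 array of each group and no test, it was -0.01 (all features -0.04).

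**Figure D3:**
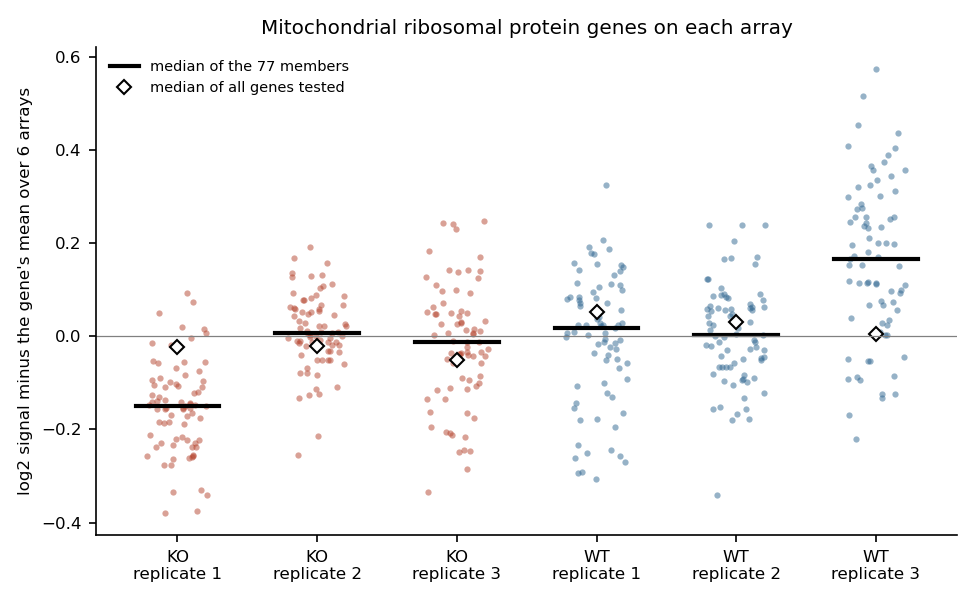
Deviation of each of the 77 members (points) from its own mean over the 6 arrays, in log2 units, on KO arrays (left) and WT arrays (right). Bars are the members' medians and diamonds the medians of all features tested; the members' median is -0.15 on KO replicate 1 and 0.17 on WT replicate 3, and within 0.02 of 0 on the other 4 arrays.

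A second probe gave a further reading of the same gene for 22 members. Whether both probes of a gene read the same transcripts was not checked. The log2 fold changes of the probes had the same sign in 15 genes and opposite signs in 7 (Mrpl39, Mrpl47, Mrpl49, Mrpl50, Mrps14, Mrps25 and Mrps7). The median absolute difference between the probes of a gene was 0.08, which is less than the smallest standard error of a member (0.11). Both probes were read on the same arrays, so this is no independent check of the fold changes. The widest gap was at Mrps7, of the head of the small subunit. Its brighter probe read 2.86, 3.08 and 3.0 in KO and 3.03, 2.95 and 3.31 in WT (-0.12 ± 0.14). The other probe read 0.51, 0.40 and 0.70 in KO and 0.05, 0.43 and 0.09 in WT (0.35 ± 0.16). The groups overlapped on both probes.

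Mrps25 read 2.08, 2.19 and 2.11 in KO and 1.99, 1.72 and 2.27 in WT on its brighter probe (0.13 ± 0.16). On the other it read -1.26, -1.27 and -1.19 in KO and -0.85, -1.17 and -0.99 in WT (-0.24 ± 0.13). The second set did not overlap, with KO lower, whereas in the first WT spanned the KO values. Mrps14 read 1.6, 1.92 and 1.63 in KO and 1.87, 1.91 and 2.13 in WT on the brighter probe (-0.25 ± 0.15). On the other it read -1.70, -1.53 and -1.66 in KO and -1.68, -1.69 and -1.85 in WT (0.11 ± 0.12), so the groups overlapped on both. On the other probe of Mrpl49 the values were 1.45, 1.61 and 1.55 in KO and 1.71, 1.53 and 1.90 in WT, with overlap.

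For Mrpl50 the brighter probe gave 2.34, 2.42 and 2.39 in KO and 2.42, 2.46 and 2.55 in WT (-0.09 ± 0.11), and the other probe 0.09 ± 0.12. For Mrpl39 it gave 1.92, 2.04 and 2.09 in KO and 2.05, 2.0 and 2.15 in WT (-0.05 ± 0.12), and the other probe 0.09 ± 0.18. For Mrpl47 it gave 1.65, 1.81 and 1.82 in KO and 1.85, 1.68 and 1.77 in WT (-0.00 ± 0.12), and the other probe 0.02 ± 0.14. All 3 genes had opposite signs with values smaller than their standard errors and overlapping groups. Mrpl32, Mrps16, Mrpl33 and Mrpl58 had 1 probe each, so their values have no second reading. Each probe alone gave 4 of 99 at an unadjusted p under 0.05, beside 12.5% of all 36739 probes.

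Many members share a promoter region with a gene on the other strand. Of the 69 members with a listed start, 23 (33.3%) had a neighbour that starts within 500 bases and runs the opposite way, beside 10.9% of all genes. In 20 pairs both genes were tested, and in 8 of them the fold changes had the same sign. Mrpl32 (-0.32) stands beside Psma2, a proteasome subunit, with -0.21 ± 0.13, and Mrps12 (-0.20) beside Sars2, the mitochondrial seryl-tRNA synthetase, with -0.22 ± 0.24. Mrpl43 (0.28) stands beside Twnk, the mitochondrial DNA helicase, with -0.30 ± 0.20, and Mrpl49 (0.20) beside Fau, which encodes a cytosolic ribosomal protein, with -0.26 ± 0.17. The first pairs had the same sign and the others opposite signs. Of the 20 neighbours, 4 had an unadjusted p under 0.05 (12.8% of all features), and their partners among the members did not: Eme1 (-0.47, beside Mrpl27), Zfp189 (0.33, beside Mrpl50), 2610507I01Rik (0.33, beside Mrpl55) and Ska3 (-0.97, beside Mrpl57). Ska3 takes part in chromosome segregation. The cell division list was lower on the KO arrays and highest on WT replicate 3, and its part in this value was not tested.

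**Figure D4:**
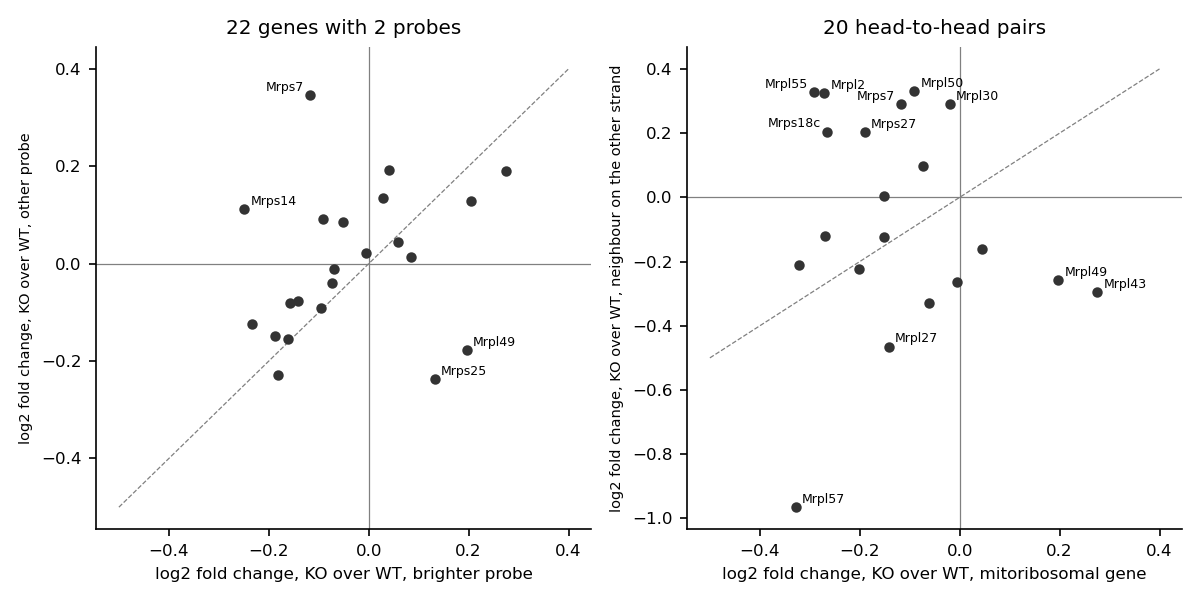
Left, log2 fold change, KO over WT, of the brighter probe (horizontal) against that of the other probe (vertical) for 22 members with 2 probes. Right, the same for a member (horizontal) and its head-to-head neighbour (vertical) in 20 pairs; dashed lines mark equal values, and names mark points over 0.3 apart. On the left 15 points share a sign, with Mrps7 farthest from the line, and on the right 8 do.

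Other genes of mitochondrial translation had medians of 0.06 (translation factors), -0.01 (ribosome assembly) and 0.03 (aminoacyl-tRNA synthetases), beside -0.08 over all features. Of 13 translation factors, 1 had an unadjusted p under 0.05 (percent of all features 12.8). This was Mtrf1, a release factor, with -0.14, -0.21 and -0.08 in KO and 0.44, 0.30 and 0.07 in WT (-0.42 ± 0.14). Its KO values were all below its WT values, and the limma adjusted p was 0.336. The related release factor Mtrf1l and the recycling factor Gfm2 had 0.28 ± 0.13 and 0.29 ± 0.13, opposite in sign. Of 28 genes for assembly of the ribosome and processing of its RNA, 1 was at this mark, the GTPase Mtg1 (-0.39 ± 0.16).

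The 19 mitochondrial aminoacyl-tRNA synthetases and related genes had 4 at an unadjusted p under 0.05 (21.1%), beside 12.8% of all features. Qrsl1 and Gatb, subunits of the amidotransferase that makes glutaminyl-tRNA in mitochondria, were higher in KO. Qrsl1 read -1.70, -1.48 and -1.43 in KO and -2.45, -2.33 and -2.11 in WT (0.76 ± 0.15, limma adjusted p 0.226). Gatb read 1.94, 1.93 and 2.15 in KO and 1.84, 1.41 and 1.07 in WT (0.56 ± 0.21). The arrays of neither gene overlapped. Vars2 and Fars2, the valyl- and phenylalanyl-tRNA synthetases, had -0.33 ± 0.13 and -0.34 ± 0.14. Among 20 genes of mitochondrial DNA transcription and replication 1 was at this mark, Polg2 (-0.46 ± 0.17), the accessory subunit of the DNA polymerase. The mitochondrial RNA polymerase Polrmt and the packaging factor Tfam had 0.16 ± 0.13 and 0.20 ± 0.14.

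Nuclear genes of the respiratory chain and of the cytosolic ribosome had lower medians than the members, but the cytosolic median was above that of the members with quantile normalization, cyclic loess, the authors' value table and in slide row 2 alone. The median log2 fold change was -0.25 over 37 nuclear genes of complex I and -0.26 over 45 of complexes II to V. At an unadjusted p under 0.05 these held 8 (21.6%) and 7 (15.6%) genes, beside 12.8% of all features. Over 76 cytosolic ribosomal protein genes the median was -0.30, with 11 (14.5%) at that mark. All 76 were below 0, beside 61% of all features. The genes with the smallest p were Ndufb7 of complex I (-0.40), Atp5k of ATP synthase (-0.42) and Rps19 of the cytosolic ribosome (-0.45). None of these genes passed the adjusted threshold, and the difference between these lists and the members was not tested. With quantile normalization the members' median was -0.07, beside -0.02 for the cytosolic genes and -0.10 for complex I. With cyclic loess the members had -0.068 and the cytosolic genes -0.062. With the authors' value table the members had -0.07 and the cytosolic genes -0.02, and in slide row 2 the members had -0.01 and the cytosolic genes 0.08.

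These lists were compared with the members array by array. Complex I had median deviations of -0.23, -0.04 and -0.12 on the KO arrays and 0.08, 0.02 and 0.28 on the WT arrays. The cytosolic ribosomal proteins had -0.22, -0.01 and -0.22 on the KO arrays and 0.28, -0.08 and 0.23 on the WT arrays. KO replicate 1 was lowest for all 3 groups of genes. WT replicate 3 was highest for the members and complex I, and WT replicate 1 for the cytosolic genes. On KO replicate 3 and WT replicate 1 the cytosolic genes lay away from their mean, whereas the members were at -0.01 and 0.02.

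**Figure D5:**
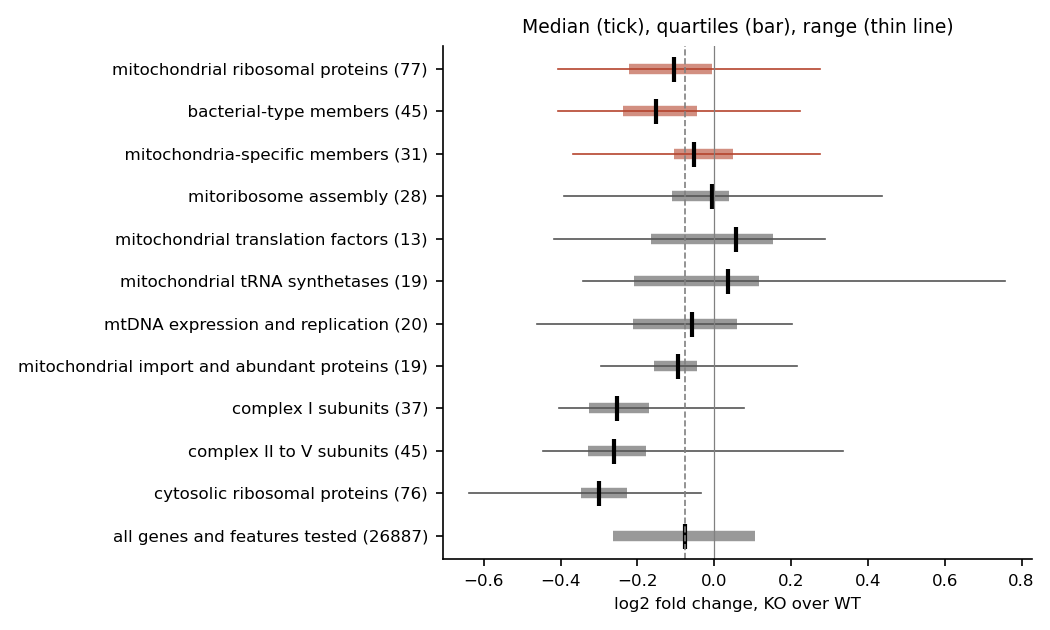
Log2 fold change, KO over WT, of the members (red) and of other gene lists (grey), with the number of tested genes in brackets. Ticks are medians, bars run from the first to the third quartile and thin lines the range (not drawn for all features); the dashed line is the median of all features (-0.08). The members' median (-0.11) is near that line and the respiratory and cytosolic ribosomal lists lie to its left, but the members' median is below the cytosolic one with quantile normalization (-0.07 and -0.02), cyclic loess (-0.068 and -0.062), the authors' value table (-0.07 and -0.02) and in slide row 2 alone (-0.01 and 0.08).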

How the data were processed

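RNA from whole pituitaries of 3 KO and 3 WT females was hybridised, after Cy3 labelling, to one-colour Agilent arrays that shared 1 slide and 1 scan. Per the file headers, Agilent Feature Extraction 11.0.1.1 wrote the deposited intensity values (processed signal). It had subtracted the background and detrended them, and arrays were not scaled to each other. The authors' value table holds log2 values whose normalization and filter are not stated. The submitters' processing notes name limma.

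Control spots and outlier spots were left out (0 values of members), and log2 processed signals minus each array's 75th percentile were averaged per probe. The filter asked for 3 arrays well above background, which 36739 of 55681 probes met, and each gene took its brightest probe. RefSeq accessions matched 27656 probes to symbols, names being taken from the GRCm38.p6 tables. Symbols were found for 16461 of the 26887 features that entered the test. The KO and WT arrays were fitted with limma (version 3.58.1 in R 4.3.3; lmFit and eBayes, two-sided, Benjamini-Hochberg over all features), after reading with data.table (version 1.17.8). The fit was tested on simulated data with independent noise for each gene and planted changes larger than that of any member. That test does not cover changes of the members' size or arrays on which genes move together. Intervals are 95%. Kdm4a was also tested by exact permutation.

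The members, gene lists and tests were chosen with earlier results of these data known. Genes named are the 8 members lower and the 4 higher in KO with the smallest p, the 5 without overlap and with the largest change in each direction, members whose probes disagree in sign, the stalk and exit tunnel genes, and up to 3 genes with the smallest p of each other list. Other genes named (Fars2, Nrf1, Polrmt, Tfam, Mrps12, Mrpl54, Mrps36, Ptcd3, Gadd45gip1, the hormones and the neighbours) were chosen after their values were seen. Alternatives covered background correction, scaling, filters, probe choice, the variance model, array weights, blocks, slide rows and each array left out. Replicate numbers were not taken to pair the animals. Deviations of same-numbered arrays correlated at 0.15, -0.179 and -0.0835. The labels do not state a pairing, and such correlations alone do not settle it.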

Additional observations from a re-analysis of the deposited data

How the results depend on the processing

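No member was called at an adjusted p under 0.05 under any of the 20 alternatives with a test, the lowest being 0.174. Over all features the count, 0 as reported, was 24 with normexp background correction, 19 with median centring, 27 with the authors' value table, 11 with probes well above background on all arrays, 27 with a variance trend and robust fit, and 15 at an adjusted p under 0.1. Leaving out 1 array gave 0 to 1.

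The members' median log2 fold change, -0.11 as reported, was 0.073 with median centring and -0.014 in slide row 2 alone. The number of members at an unadjusted p under 0.05, 4 as reported, was 1 with median centring (higher in KO), 9 with the authors' value table (6 lower and 3 higher in KO), 2 with no filter, 8 with the all-array filter, 12 with the variance trend and robust fit, 1 with the replicate block and 0 with the slide row block. It was 0 to 10 without 1 array, with 0 without KO replicate 1 or WT replicate 3, 1 without KO replicate 3, 2 without KO replicate 2 or WT replicate 1, and 10 without WT replicate 2. The replicate block, with numbers not known to pair the animals, called 0 features. Of features at an unadjusted p under 0.05, 69.6% were lower in KO as reported, beside 22.9% with median centring, 42.9% with quantile normalization, 46.9% with cyclic loess and 46.8% with the authors' value table. The cause of these shifts was not tested. Of the 77 members, 24 kept their sign under all 21 alternatives, 17 below 0 and 7 above. Among them were the 8 lower and 4 higher in KO with the smallest p. Several alternatives could not change a sign. The variance model, the blocks, the filters and each probe alone (read at the member's main probe) left the log2 fold changes of these genes as they were. Mrpl49 counts as kept, although its other probe gave -0.18 and the mean of its probes 0.01. With 3 arrays per group, the median interval of a member reached 0.33 to either side, and no member was called, the lowest fold change being -0.41.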
